A study of Homo sapiens with 9 samples.

Results

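The genes described here are MYC, MYCN and MYCL, the 3 members of the MYC family, MAX, which encodes the partner protein of all of them, and MYB, a second proto-oncogene of blood cells. They are 5 of the 20033 protein-coding genes of chromosomes 1 to 22, X and Y in the RefSeq table for GRCh38, and were taken by name. For each gene the window examined was the gene body and 500 kb to each side, a distance that can hold remote enhancers. The 5 windows held 41 of the 9857 H3K27ac peaks of the series and 4 of the 1643 regions called with the NKX2-1 antibody in at least 1 library.

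The cells were of the human line RPMI-8402, grown out from a T-cell acute lymphoblastic leukaemia (T-ALL), and the assay was ChIP-seq, in which DNA recovered with an antibody from crosslinked chromatin is sequenced. An antibody to NKX2-1 (TTF1; ab76013), a homeodomain transcription factor, was used on 1 library each from 4 NKX2-1 knockout (KO) clones, C12, C15, S04 and S36, and 4 wild-type (WT) clones, WT10, WT13, WT28 and WT30. The design text calls the first 4 clones knockouts, while their genotype field reads NKX2-1. The ninth library, for which the labels give no clone, used an antibody to H3K27ac, the acetylation of histone H3 at lysine 27 that is found at active promoters and enhancers; its genotype field has the same NKX2-1 entry and there is no second library of its kind. Since there is 1 library per clone, a p-value over the 8 libraries measures the spread between clones of 1 line, which cannot be told apart from technical spread. The files are peak lists without read numbers: sequencing depth is unknown, and a site without a peak is a site that was not called, not a site shown to be unbound or unacetylated.

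MYC-family proteins are basic helix-loop-helix leucine-zipper factors that bind E-box DNA as heterodimers with MAX and raise the transcription of genes for growth, ribosome assembly and metabolism. In T-ALL, MYC is a direct target of NOTCH1 through an enhancer that lies far downstream of the gene. MYB encodes a DNA-binding factor needed by haematopoietic progenitors; it is duplicated or translocated in some T-ALL cases, works with TAL1 on shared enhancers, and is itself controlled by enhancers that lie between HBS1L and MYB and within its gene neighbourhood.

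The NKX2-1 antibody libraries held 810 to 934 peaks in KO clones and 742 to 1144 in WT clones, and H3K27ac peaks overlapped 0.119% to 4.71% of KO peaks and 0.27% to 6.47% of WT peaks. S36 and WT10 had the highest of these shares in their groups. The H3K27ac library was checked against marker genes, counted where a peak lay in the gene or within 1 kb of it, as was the case for 23.8% of all protein-coding genes. It marked 9 of 14 T-lineage genes, among them CD3D, CD3E, CD3G, LCK, TCF7, GATA3, BCL11B and NOTCH1, but not CD2, CD7, PTCRA, RAG1 or RAG2. It marked 3 of 4 T-ALL factor genes (TAL1, LMO1 and NKX2-1, not LMO2), 0 of 7 B-lineage genes, 1 of 7 myeloid genes (SPI1) and 2 of 6 lung and thyroid epithelial genes, among them TG.

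MYB carried most of the H3K27ac peaks of the group. Its window (MYB on chromosome 6, 135181308 to 135219172, plus strand, 37865 bp) held 29 H3K27ac peaks, against 6 for MYCN, 3 each for MYC and MYCL and 0 for MAX. A window of a protein-coding gene held a median of 4 peaks (quartiles 1 and 10), and 96.5% of genes had fewer than MYB. The share of genes with fewer was 57.0% for MYCN and 35.3% for MYC and MYCL, so these 3 lay near the middle of the distribution. At least 1 H3K27ac peak was present for 4 of the 5 genes, where 85.5% of all genes had one. Windows of neighbouring genes overlap, so those 20033 counts are a description and not independent values.

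**Figure D1:**
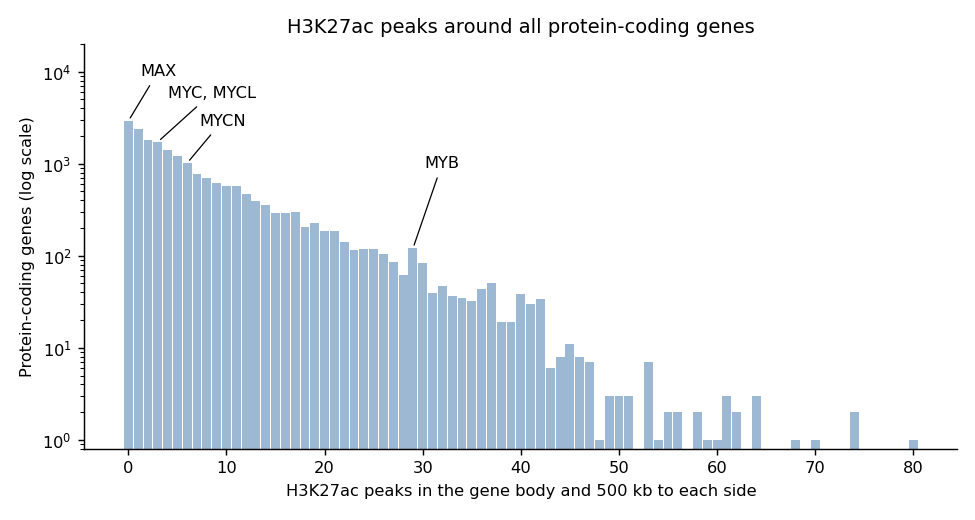
Number of protein-coding genes (vertical, log scale) by the number of H3K27ac peaks in the gene body and 500 kb to each side (horizontal), with the 5 genes marked. MYB, at 29 peaks, lies in the upper tail, MYCN, MYC and MYCL lie at 6 and 3 peaks, and MAX lies at 0.

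The start of the MYB gene was covered by 1 of the strongest peaks of the library. The peak at 135181207 to 135184087 (2881 bp) had a 14.7-fold enrichment at its summit, 1.45 kb into the gene. This fold, the peak caller's enrichment over background, is the authors' own value; 98.4% of H3K27ac peaks had a lower one, and 99.0% were narrower. A second peak, at 135180557 to 135181040, had an 11.1-fold enrichment and ended 268 bp before the gene. A peak within 1 kb of a gene end was present for MYB, MYCN and MYC, and for neither MYCL nor MAX, where 19.0% of all genes had one. The windows from 250 bases before to 50 bases after the annotated start are given here for MYB, whose window overlapped the 14.7-fold peak by 151 bp, and for MYCN, whose window ended 139 bp before the nearest H3K27ac peak, because these starts lay in or next to acetylated chromatin. They are from RefSeq, build GRCh38.p14, both on the plus strand and written 5′ to 3′, at chr6:135181058-135181357 for MYB and chr2:15940300-15940599 for MYCN. Capitals mark matches, on either strand, of 5 motifs: the MYC-MAX E-box CACGTG, the NKX2 core CACTTG (itself an E-box of the form CANNTG), the RUNX motif TGTGGT, the MYB motif AACNG, and the TAL1-E2A type E-box CAGATG or CAGGTG.
MYB: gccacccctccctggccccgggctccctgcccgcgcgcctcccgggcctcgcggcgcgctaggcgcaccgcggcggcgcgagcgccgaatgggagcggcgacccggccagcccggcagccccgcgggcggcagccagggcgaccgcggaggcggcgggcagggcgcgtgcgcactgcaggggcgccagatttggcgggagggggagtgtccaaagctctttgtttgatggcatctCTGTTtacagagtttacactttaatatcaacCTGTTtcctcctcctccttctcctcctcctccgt
MYCN: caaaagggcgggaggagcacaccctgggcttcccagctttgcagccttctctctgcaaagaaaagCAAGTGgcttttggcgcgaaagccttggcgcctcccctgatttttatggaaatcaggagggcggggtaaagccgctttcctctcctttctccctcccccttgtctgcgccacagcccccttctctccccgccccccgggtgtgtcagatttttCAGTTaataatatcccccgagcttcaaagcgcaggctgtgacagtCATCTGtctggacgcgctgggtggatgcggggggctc
The MYB window held the MYB motif at -15 and 17 from the start and none of the other 4 motifs. The MYCN window held 1 match each of the NKX2 core (-185), the MYB motif (-32) and the TAL1-E2A type E-box (14). Of all 35116 RefSeq promoter windows of 300 bases, 77.2% held the MYB motif, 32.0% the TAL1-E2A type E-box, 13.1% the RUNX motif, 11.5% the NKX2 core and 7.26% the MYC-MAX E-box. These matches describe the reference sequence; no NKX2-1 antibody peak of any library lay at either start. Promoter windows were matched for 4 of the 5 genes, because the RefSeq promoter set used here held none for MYC. The MYCL window held the MYB motif and the TAL1-E2A type E-box, and neither of the 2 MAX windows held any of the 5 motifs.

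Beyond its start, MYB had a train of acetylated sites on the downstream side. Of the 29 peaks, 3 lay in the gene body, 4 before it and 22 after it. Peaks joined across gaps of up to 12.5 kb formed 11 domains in this window. Inside the gene, 2 weak peaks lay at 135195286 to 135195494 (5.21-fold) and 135213622 to 135213853 (5.7-fold). The first domain past the gene, 52.5 to 55.2 kb from the start, held 2 peaks, of which 135234658 to 135236491 (1834 bp, 13.4-fold) exceeded 97.7% of H3K27ac peaks in fold. A further pair of domains without a protein-coding gene followed, with 3 peaks 69.3 to 71.9 kb from the start (up to 7.06-fold) and 5 peaks 85.3 to 99.1 kb from it (up to 7.16-fold).

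The domain with the most peaks lay inside AHI1, the downstream neighbour of MYB, which encodes a protein of the primary cilium. It ran from 135319449 to 135328319, 138 to 147 kb from the MYB start, and held 7 peaks that covered 5.76 kb of its 8.87 kb. Of the 5140 such domains in the genome, 96.4% had fewer peaks and 97.7% had less covered sequence; 61.5% were a single peak. Its widest peak, 135321936 to 135324952 (3017 bp, 10.6-fold), was wider than 99.1% of H3K27ac peaks. Further into AHI1 lay 2 peaks 165 to 167 kb from the start (up to 9.61-fold), 2 at 228 to 229 kb (up to 6.52-fold) and 1 at 242 kb (4.85-fold). On the other side, HBS1L, which encodes a translational GTPase, held 3 peaks, 2 of them 167 to 166 kb before MYB (135014092 to 135015126, 8.14-fold, and 135015192 to 135015436, 5.66-fold) and 1 at 127 kb before it (135054332 to 135054720, 6.58-fold). No H3K27ac peak was called between that last peak and the one just before the MYB start.

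**Figure D2:**
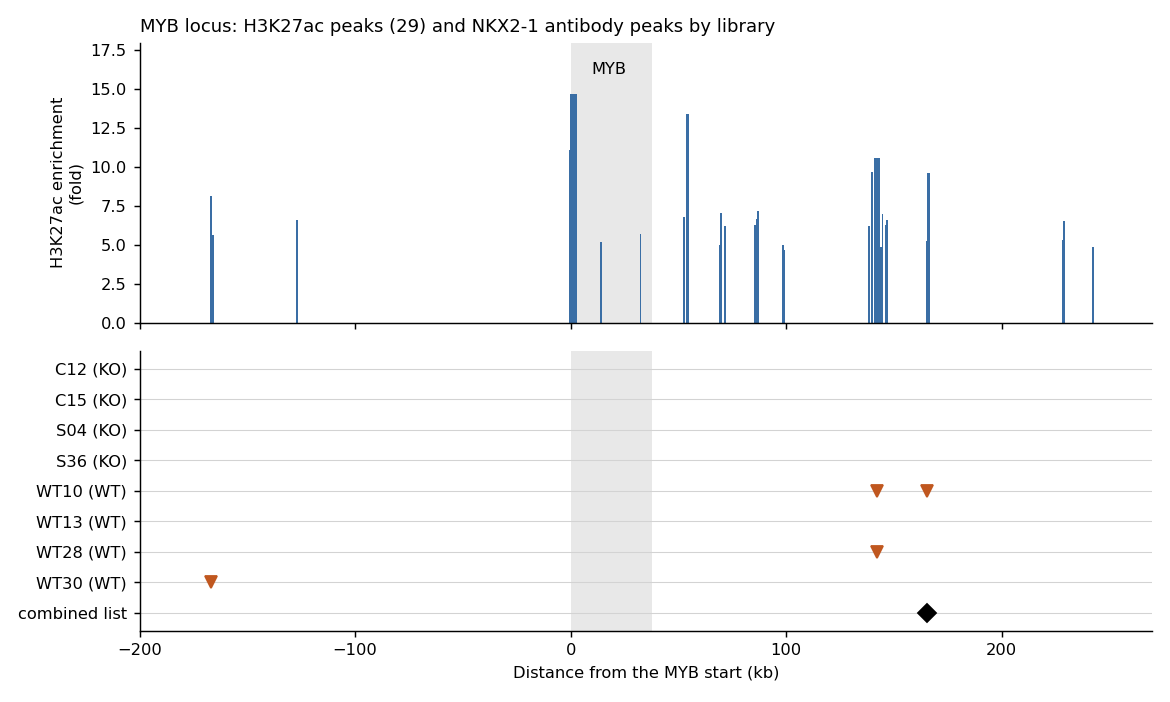
The MYB locus, with distance from the MYB start in kb (horizontal) and the gene body in grey. The upper panel gives H3K27ac enrichment (fold) for each of the 29 peaks; the lower panel gives NKX2-1 antibody peaks by library, with the 4 KO clones in the top rows and the 4 WT clones beneath them (triangles), and the combined list as a diamond. Peaks were called in WT10, WT28 and WT30, with 2, 1 and 1 peaks, and in no KO library.

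The NKX2-1 antibody peaks of the MYB window lay at 3 places, all with H3K27ac and all 142 kb or more from the MYB start. No KO library had a peak at any of them. At the first AHI1 site (135323237 to 135323558, 322 bp), WT10 had a 3.7-fold peak and WT28 a 3.37-fold peak, and WT13 and WT30 had none. That site lay within the 3017-bp H3K27ac peak of the 7-peak AHI1 domain, with NKX2-1 antibody summits 573 bp (WT10) and 464 bp (WT28) from the H3K27ac summit. The nearest KO peak was 1076 kb away.

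The second AHI1 site (135346696 to 135346913, 218 bp) was called only in WT10 (4.54-fold), the NKX2-1 antibody library with the most peaks (1144). It bridged the gap between H3K27ac peaks at 135346466 to 135346702 and 135346881 to 135348052, shared 40 bp with them in all, and had its summit in neither. The authors' combined list, made from the NKX2-1 antibody libraries in a way the sources used here do not state, held a peak at this place (135346665 to 135347089, 3.95-fold), which ranked 134 of 209 by fold in that list. The third site, in HBS1L (135014362 to 135014577, 216 bp), was called in WT30, at 4.53-fold, and in no other library. Its summit lay 107 bp from that of the 8.14-fold H3K27ac peak. Neither the HBS1L site nor the first AHI1 site held a combined-list peak. All 3 sites were in the deposited list of WT-only regions, with the same coordinates. That list has 496 entries, as many as the regions called in WT libraries alone, so being in it restates the calls.

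MYCN, which encodes the family member known from neural progenitors and neuroblastoma, had acetylation in the gene and 1 very broad acetylated site near the edge of its window. The gene lies on chromosome 2 at 15940550 to 15947004, plus strand, and 3 of its 6 H3K27ac peaks lay in it: 15940738 to 15941576 (7.41-fold), 15941735 to 15942380 (5.7-fold) and 15942661 to 15943209 (7.41-fold). Together they formed a domain of 2.47 kb, of which 2.03 kb was covered. The first 2 also lay in MYCNOS, an overlapping non-coding gene, so the mark there cannot be assigned to 1 of the genes. A peak 348 kb before the start (15591881 to 15592428, 6.05-fold) lay in DDX1, which encodes an RNA helicase.

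The broad site lay 492 kb after the MYCN start and 111 kb from CYRIA, its nearest protein-coding gene, which encodes a regulator of RAC1 signalling. Its main peak, 16432889 to 16440260 (7372 bp, 17.2-fold), had a higher fold than 99.4% of H3K27ac peaks and was wider than 99.9% of them. With a small neighbour at 16441652 to 16442008 (4.97-fold) it formed a domain of 7.73 kb covered, which ranked 63 of 5140 by covered sequence. Within this peak lay the only NKX2-1 antibody site of the MYCN window (16438833 to 16439242, 410 bp). No KO library had a peak there; WT10 had a 4.93-fold peak, WT28 a 4.26-fold peak and WT30 a 4.75-fold peak, and WT13 had none. The 3 summits lay 581 to 708 bp from the H3K27ac summit, and the nearest KO peak was 5325 kb away. The combined list held a peak here as well (16438855 to 16439137, 5.25-fold, rank 31 of 209). The place lies just inside the 500 kb limit; the next H3K27ac peak on that side (16462330 to 16462965, 6.68-fold), 515 kb from the gene, fell outside it.

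**Figure D3:**
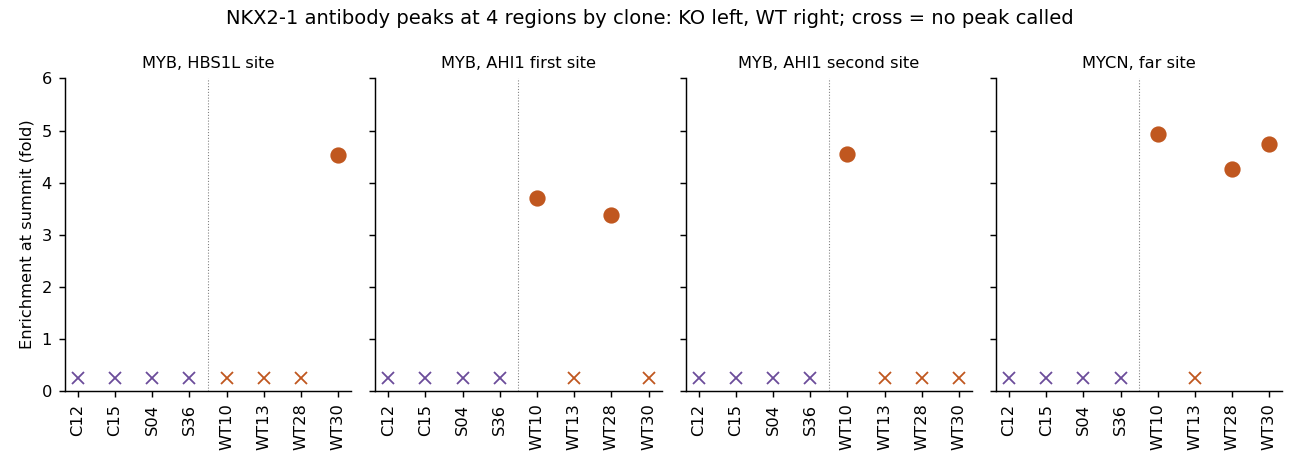
Enrichment at the summit (fold, vertical) of NKX2-1 antibody peaks at the 4 regions of the windows, by library (horizontal), with KO clones on the left and WT clones on the right of each panel. A cross near the axis marks a library without a called peak and has no value. All KO clones are crosses; the MYCN site has peaks in 3 WT libraries at 4.26-fold to 4.93-fold, and the 3 MYB sites have peaks in 1 or 2.

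These 4 regions were set against all 1643. All 4 were called in WT libraries alone, as were 30.2% of all regions. The MYCN site was called in 3 WT and 0 KO libraries; 4.02% of all regions had a call in 3 or 4 WT and 0 KO libraries. H3K27ac overlapped all 4, against 6.51% of all regions and 12.3% of the regions called in WT libraries alone. The H3K27ac library has the NKX2-1 genotype entry of the KO clones and no clone label. The overlap therefore does not show acetylation in the WT cells where these regions were called. A combined-list peak was in 2 of the 4, against 7.67% of all regions. In two-sided Fisher's exact tests of the number of libraries with a call (4 KO against 4 WT), p was 0.143 for the MYCN site, 0.429 for the first AHI1 site and 1 for the 2 others, and the p adjusted over all 1643 regions by the Benjamini-Hochberg method was 1 for each. With 4 libraries a group that test cannot give a p below 0.0286, and 0% of the 1643 regions passed an adjusted p of 0.05 (0 regions, with 19 at an unadjusted p under 0.05). Enrichment at the 4 regions was modest within each library: between 19.2% and 34.4% of a WT library's own peaks had a lower fold.

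Counted over whole windows, NKX2-1 antibody peaks at MYB and MYCN were called in WT libraries alone. The difference in their number between KO and WT libraries did not pass the test, which after adjustment it could not have done here. In the MYB window C12, C15, S04 and S36 had 0 peaks each, against 2 in WT10, 0 in WT13, 1 in WT28 and 1 in WT30. The means were 0 ± 0 in KO and 1 ± 0.816 in WT libraries (SD, n = 4 each), a difference of -1 peaks (two-sided exact permutation p = 0.143, adjusted p = 0.286). In the MYCN window the KO libraries again had 0 each, against 1, 0, 1 and 1 in WT10, WT13, WT28 and WT30, with means of 0 ± 0 in KO and 0.75 ± 0.5 in WT libraries (SD, n = 4 each; difference -0.75, exact permutation p = 0.143, adjusted p = 0.286). The groups overlapped in both windows because WT13, like the KO clones, had none. The MYC, MYCL and MAX windows had 0 peaks in all 8 libraries (exact permutation p = 1 for each), and 69.4% of all genes had none. Over the 5 windows together the KO libraries had 0 ± 0 peaks and the WT libraries 1.75 ± 1.26 (SD, n = 4 each; difference -1.75, exact permutation p = 0.143, adjusted p = 0.286). The p-values were adjusted over 6 tests, and the smallest p that the 70 assignments of clones allow is 0.0286. With no peaks to compare in the MYC, MYCL and MAX windows, no split of clones in the other tests could bring an adjusted p under 0.05. Without WT13, the difference was -1 at MYCN, -1.33 at MYB and -2.33 over the 5 windows. Each had an exact permutation p = 0.0286 before adjustment, the smallest that 4 KO and 3 WT libraries allow. That outcome was fixed by the counts, because WT13 was the only WT library with 0 peaks there, so it adds no support. Leaving out any other library gave an exact permutation p = 0.143 for each of the 3 differences. WT13 had 742 peaks, the fewest of the 8 libraries, and 0.27% of them overlapped H3K27ac, the lowest share among WT libraries. WT10, with 3 peaks in the 5 windows, had 1144 peaks in all and a 6.47% overlap, both the highest of the 8 libraries. The part of these properties in the counts was not tested. With a −log10 q of at least 5 the difference was -0.25 at MYB and -0.5 at MYCN, and with at least 10 it was 0 at both.

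A peak in at least 1 WT and 0 KO libraries was present for 2 of the 5 genes, where 10.6% of all genes had that pattern; the opposite pattern, in at least 1 KO and 0 WT libraries, was present for 0 of the 5 and also for 10.6% of all genes. A combined-list peak was present for 2 of the 5 genes, where 10.3% of all genes had one.

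**Figure D4:**
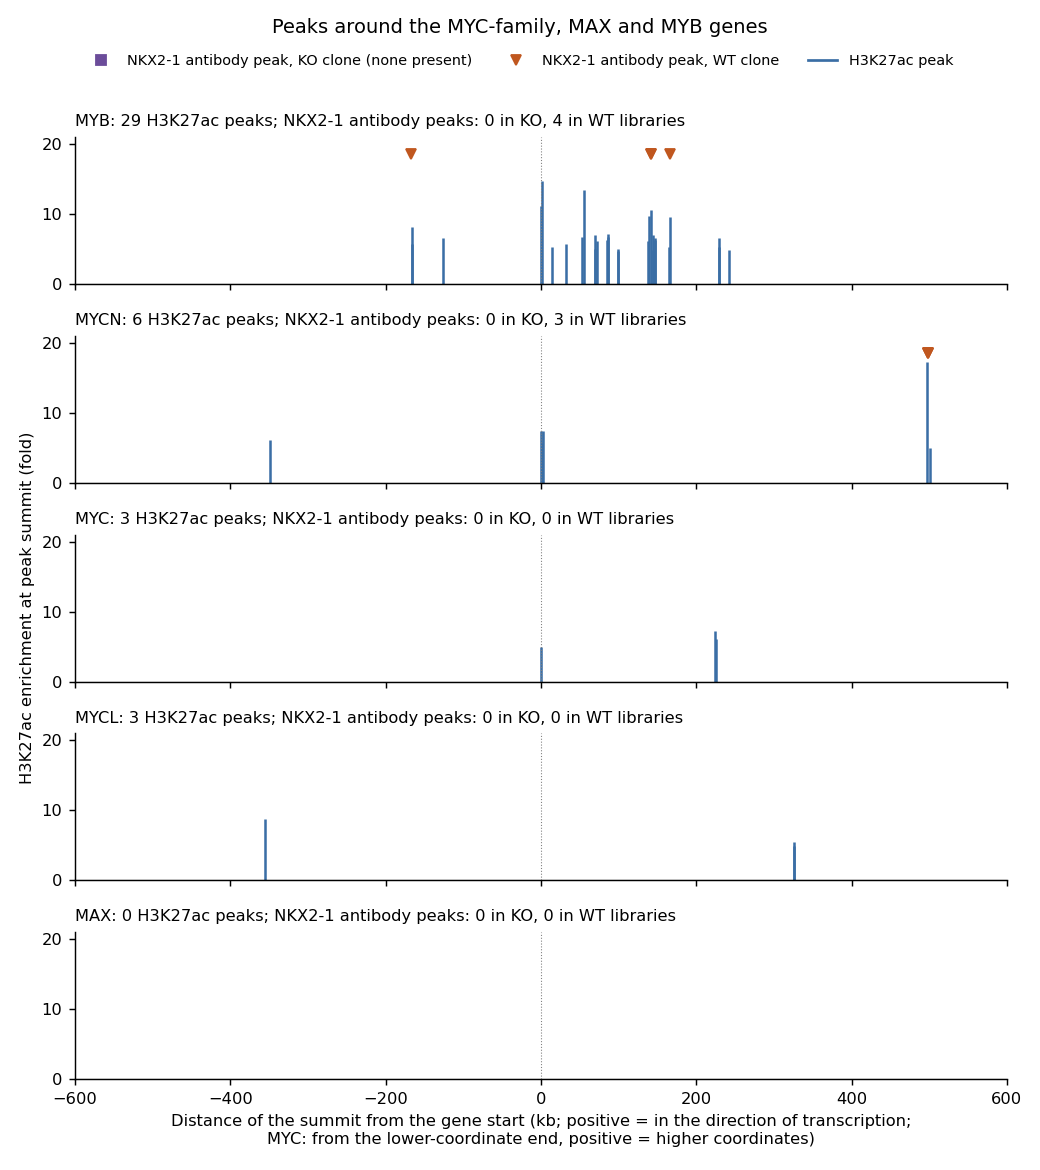
H3K27ac enrichment (fold, vertical lines) by distance of the peak summit from the gene start in kb (horizontal) for the 5 genes, with NKX2-1 antibody peaks of WT clones as triangles; no KO clone had a peak in these windows. MYB shows 29 H3K27ac peaks with 4 WT-library peaks at 3 places, MYCN 6 with 3 WT-library peaks at 1 place, and MYC, MYCL and MAX show 3, 3 and 0 with none.

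MYC had 3 H3K27ac peaks within 500 kb, against a median of 4 over all genes. The gene lies on chromosome 8 at 127735434 to 127742951, and its distances are counted from the lower-coordinate end. A single narrow peak lay in the gene (127735858 to 127736057, 200 bp, 4.97-fold). Only 5.71% of H3K27ac peaks had a lower fold, and none was narrower. The other 2 peaks, at 127959772 to 127960358 (7.26-fold) and 127961243 to 127961520 (6.13-fold), lay 224 to 226 kb away in PVT1, the long non-coding gene next to MYC. In all, peaks covered 1.06 kb (0.106%) of the MYC window, against 19.1 kb (1.84%) of the MYB window and 10.3 kb (1.02%) of the MYCN window.

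Outside that window the picture at MYC changed on the higher-coordinate side. The next peak beyond PVT1 lay 1323 kb from the gene's zero point, and 15 peaks in 4 domains followed up to 1506 kb, in an interval with no protein-coding gene nearer than GSDMC, 465 kb or more away. The largest domain, 129165204 to 129180577 (15.4 kb, 1430 to 1445 kb from MYC), held 8 peaks covering 7.2 kb and ranked 75 by covered sequence and 97 by number of peaks among the 5140 domains. Its leading peak, 129166418 to 129169714 (3297 bp), had a 16.9-fold enrichment, above 99.3% of H3K27ac peaks. The other 3 domains peaked at 10.3-fold, 8.87-fold and 8.14-fold. No NKX2-1 antibody peak of any library lay within 2000 kb of MYC. The files hold no coordinates of the NOTCH1-bound MYC enhancer known from T-ALL, so these domains were not compared with it.

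**Figure D5:**
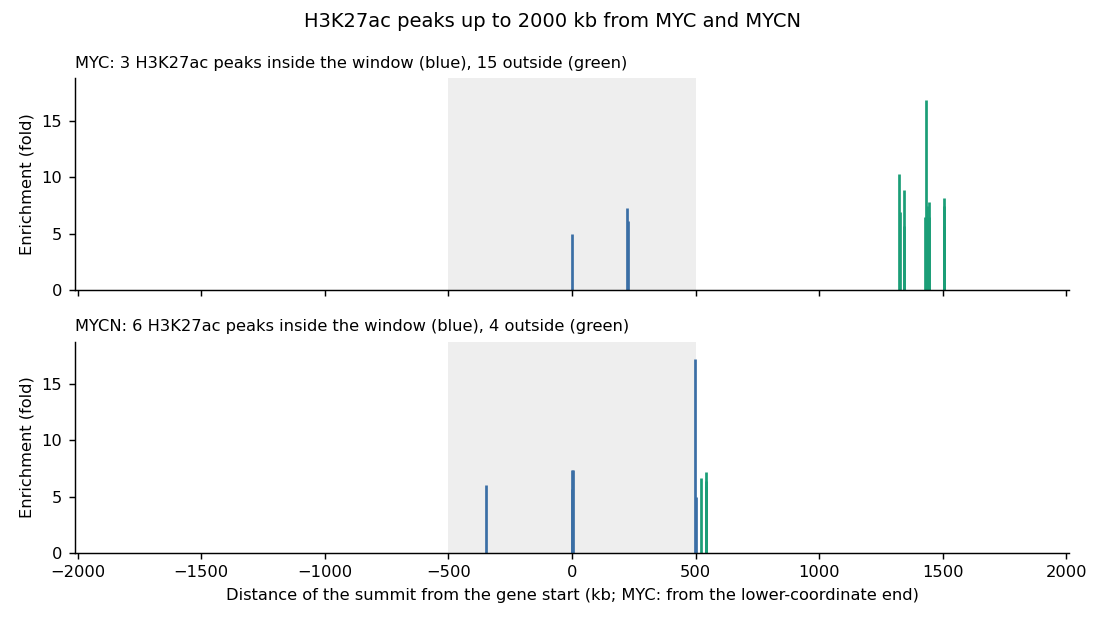
H3K27ac enrichment (fold, vertical) by distance of the summit in kb (horizontal) up to 2000 kb from MYC (upper panel) and MYCN (lower panel); grey marks 500 kb to each side. MYC has 3 peaks inside the grey band and 15 between 1323 and 1506 kb, up to 16.9-fold; MYCN has 6 inside it, including the 17.2-fold peak at its edge, and 4 just outside.

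MYCL and MAX had no H3K27ac peak in the gene or within 250 kb of it. MYCL, the family member first found in small-cell lung cancer, lies on chromosome 1 at 39895428 to 39901917, minus strand. Its 3 peaks belonged to the surroundings: 2 lay in PABPC4, which encodes a poly(A)-binding protein (39575454 to 39575709, 4.97-fold, and 39575910 to 39576139, 5.45-fold), and 1 lay 0.67 kb from ZMPSTE24, which encodes a metalloprotease that processes prelamin A (40257308 to 40258086, 8.77-fold). They were 319 kb or more from the gene. MAX, on chromosome 14 at 65006101 to 65102695, minus strand, had no peak in its window; 139 of the 605 protein-coding genes of that chromosome (23.0%) had none either. That share was 7.62%, 13.3% and 17.2% on chromosomes 1, 2 and 6, and ran from 1.37% on chromosome 17 to 50.9% on chromosome 13 among the autosomes. The nearest H3K27ac peak to MAX (64504171 to 64504543, 6.92-fold) lay 502 kb from the gene, just outside the limit, where ZBTB1 and ZBTB25 overlap.

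The wider MYC and MYB network was described with 32 genes in 5 lists, counting an H3K27ac peak in the gene or within 10 kb of it. Of these genes, 21 had one, where 29.0% of all protein-coding genes did, and the median number of peaks was 1 per listed gene and 0 per gene overall. Among 9 genes for partners of MAX and for relatives of its partners, 5 had a peak: MLX (6.92-fold) and MLXIP (6.89-fold), which act in a glucose-sensing branch of the network, MXD3 (6.19-fold) and MXD1 (5.94-fold), which encode repressors that compete with MYC for MAX, and MGA (6.19-fold). The other 4, MXI1, MXD4, MNT and MLXIPL, had none. Of the MYB relatives, MYBL2, a cell-cycle regulator, had a peak (5.61-fold) and MYBL1 had none. Among 9 cofactors and regulators, 6 had a peak, led by LIN9 (10.7-fold), a subunit of the complex in which MYBL2 works, the acetyltransferase gene EP300 (8.79-fold) and AURKA (7.65-fold), whose kinase stabilises MYCN protein. FBXW7, which encodes the ubiquitin ligase subunit that targets MYC, and CREBBP and ZBTB17 had none.

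Known MYC target genes were marked in 7 of 9 cases, led by EIF4E (11.8-fold), a translation initiation factor gene, NCL (10.3-fold), which encodes nucleolin, LDHA (7.48-fold), which encodes lactate dehydrogenase A, and NPM1 (7.16-fold), which encodes nucleophosmin. TERT and CCND2 had no peak. Of 3 MYB target genes, CD34 had 14 peaks (up to 11.1-fold) and BCL2 had 3 (up to 11.3-fold), and KIT had none. None of the 32 genes had an NKX2-1 antibody peak of any KO or WT library within 10 kb, where 2.59% of all genes did. By the rule of 3 (3 divided by the number of genes), 0 of 32 would allow a share of up to 9.38%. That rule takes the genes as independent random draws, and these were chosen by name, so it is a rough guide only. Within 100 kb, 3 of the 32 had one, where 9.02% of all genes did.

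The 2 genes outside the 5 windows most like each of the genes were found from the numbers of peaks in the 9 libraries, by the sum of absolute differences. For MYB they were FIGNL2 and SLC4A8 (sum 1), which are neighbours on chromosome 12 with 29 H3K27ac peaks each. For MYCN they were CYRIA and ARSG (sum 0), of which CYRIA shares the broad site described above, so some of the same peaks were counted for both. For MYC, MYCL and MAX a sum of 0 was common: 1334 genes matched MYC and MYCL exactly, and 2553 matched MAX. Ties were broken by the closest highest fold and then by symbol, which gave AFF3 and AAAS for MYC, BCCIP and DHX32 for MYCL, and A1CF and AASS for MAX.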

How the data were processed

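Per the submitters' processing notes, the build was hg38 and the tools included Bowtie2, FastQC, MACS2, SAMtools and deepTools. Versions, settings and the control used to call peaks are not given in the sources used here. Deposited by the authors were a peak list per library, a combined list and a list of WT-only regions. Each deposited peak carries a ratio (fold enrichment at the summit) and a −log10 q, both the authors' values, used only within a list; the smallest deposited −log10 q lay between 2.01 and 2.25 over the libraries. The deposited score and −log10 p were not used. Coordinates are 1-based.

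Peaks of the 22 autosomes, X and Y were counted in RefSeq windows with an overlap of at least 1 bp. Peaks of the 8 NKX2-1 antibody libraries that touched were merged into 1643 regions. KO and WT libraries were compared by two-sided exact permutation tests on peak numbers and, per region, Fisher's exact test, with Benjamini-Hochberg adjustment. H3K27ac has 1 library and no test. The counting and test code was tested on simulated data. RefSeq tables without exons were used, so exonic or intronic position was not determined, and no genome sequence was used. The genes and lists were chosen with earlier results of these data known. Named were the 5 genes, protein-coding genes holding or nearest to a peak, up to 4 genes per list with the highest H3K27ac fold, and the 2 genes most like each member by peak numbers; other listed genes were added after their values were seen, to complete small counts. Values of some listed genes are not reported here. Alternatives varied the window, the −log10 q minimum, the overlap and the libraries used. Python 3.11.15, pandas 2.3.3, numpy 2.4.6, SciPy 1.17.1 and matplotlib 3.10.9 were used.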

Additional observations from a re-analysis of the deposited data

Results flagged for a closer look

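WT13 had 0 NKX2-1 antibody peaks in the MYCN window, while WT10, WT28 and WT30 had 1 each. It was listed because its gap to the nearest of the others equals the whole range of the group. For counts of 0 and 1 that holds whenever 1 library of 4 differs, so Dixon's critical value, which is meant for continuous values, gives no measure of how unusual this is, and the difference is 1 peak.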

How the results depend on the processing

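Of 136 recomputed values, 101 kept their direction and side of an unadjusted p of 0.05 or stayed within the limit set for a count. Of the rest, 3 became stronger (under that p before adjustment only), 32 moved, and 0 weakened or reversed. Those 101 include differences of 0 at MYC, MYCL and MAX. Fewer libraries, smaller windows or a stricter −log10 q could not change these, so the tally does not measure stability. No difference had passed that threshold, so none could weaken. The 3 stronger values followed from leaving out WT13, the only WT library with 0 peaks in the MYCN and MYB windows. Leaving out 1 library at a time gave KO minus WT differences of -1 to -0.667 peaks at MYCN, -1.33 to -0.667 at MYB and -2.33 to -1.33 over the 5 windows (exact permutation p 0.0286 to 0.143), and 0 to 0 at MYC, MYCL and MAX; the 3 stronger values were those without WT13. With 100 kb to each side, or a −log10 q of at least 10, the differences at MYCN, at MYB and over the 5 windows became 0; with 250 kb the one at MYCN did, and that over the 5 windows was -1. Differences that shrank without reaching 0 were -0.5 at MYCN, -0.25 at MYB and -0.75 over the 5 windows with a −log10 q of at least 5 (exact permutation p = 0.429, 1 and 0.429). With 1000 or 2000 kb the one at MYB was -0.5, where 3 KO and 5 WT peaks were counted (exact permutation p = 0.629). Over the 5 windows it was -1.25 with 1000 kb (3 KO and 8 WT peaks) and -1.5 with 2000 kb (3 KO and 9 WT peaks), each at exact permutation p = 0.229. None of these differences had passed the test to begin with. H3K27ac peak numbers moved as follows. With 100 kb they were 1 at MYC, 3 at MYCN, 0 at MYCL and 14 at MYB, and with 250 kb 3 at MYCN and 0 at MYCL. With 1000 kb they were 10 at MYCN, 13 at MYCL and 3 at MAX, and with 2000 kb 18 at MYC, 10 at MYCN, 27 at MYCL and 3 at MAX. A −log10 q of at least 5 left 3 at MYCN, 1 at MYCL and 15 at MYB. A minimum of 10 left 0 at MYC, 1 at MYCN, 0 at MYCL and 6 at MYB. Regions in at least 3 WT and 0 KO libraries fell to 0 in the windows and 19 in the genome (66 without it). The network genes with H3K27ac fell from 21 to 6 of 32. The share of all genes at that minimum was not computed, so the 6 cannot be set against the 29.0% given above. At 100 kb, 3 network genes had an NKX2-1 antibody peak, where 9.02% of all genes did. Stitching H3K27ac over 25 kb, a setting chosen after seeing the data, gave 5 MYB domains in place of 11. No paired analysis was possible because the replicate numbers follow sample order only and no label ties a KO clone to a WT clone. Depth is unknown, so an absent peak sets no limit on binding.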

Other observations

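The one place within 1000 kb of any of the 5 genes with peaks in KO libraries was in SGK1, which encodes a serum- and glucocorticoid-regulated kinase, 934 kb before MYB on chromosome 6. C15 had a 7.78-fold peak there (134247115 to 134247565), C12 a 6.11-fold peak, S36 a 13.5-fold peak and S04 none, against a 4.13-fold peak in WT28 and none in the other WT libraries. No H3K27ac peak was called at this place. It was among the 1643 regions compared by Fisher's exact test, of which 0 passed an adjusted p of 0.05. The smallest p of that test, 0.0286, needs a call in every library of a genotype and in none of the other. This place was called in both genotypes and not in S04, so its p was higher. With 4 libraries a group the test cannot decide whether KO and WT libraries differ here.

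An NKX2-1 antibody peak lay within 100 kb, but not within 10 kb, of 3 of the 32 network genes, and within 100 kb of 9.02% of all genes. TERT had one in 3 KO and 0 WT libraries, MLX in 0 KO and 1 WT library, and BCL2 in 4 KO and 4 WT libraries. Within 2000 kb of MYCN, WT10 alone had a further peak (17792627 to 17792932, 7.74-fold), 3.87 kb from GEN1, which encodes a Holliday junction resolvase, and the combined list held a peak there too (4.2-fold) as well as one in NBAS (4.03-fold).

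The H3K27ac peaks 500 to 2000 kb from MYCL were spread over several genes, with the highest fold (13.0) where NFYC and RIMS3 overlap and a cluster of 7 in HIVEP3 (up to 10.8-fold). The 2 peaks beyond 500 kb from MYB lay in and next to BCLAF1, which encodes an RNA-processing factor (8.63-fold and 5.71-fold).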
